A study of Mus musculus with 20 samples.

Results

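The comparison set BALB against B6 mice whose Aire gene was intact, in medullary epithelial cells of the thymus. It drew on 7 of the 20 arrays of the series, those of 4 BALB and 3 B6 Aire wild-type mice, chosen by the strain and genotype in the sample titles, and on all 45037 probe sets that are not array controls. Each array carried RNA from the thymus of 1 male mouse aged 3 to 4.5 weeks. Cells were sorted as CD45 negative, G8.8 (Epcam) positive, Ly51 intermediate and high for MHC class II. The other groups used below were Aire knockout BALB mice (n = 4), Aire knockout B6 mice (n = 3), and wild-type and knockout NOD mice (n = 3 each). The series title asks how Aire acts in individual mice of different genetic backgrounds, and the 2 wild-type groups give the background difference while Aire is present.

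Medullary thymic epithelium shows peptides of the body's own proteins to developing T cells, so that cells reacting to them are deleted or diverted to a regulatory fate. Aire is a nuclear protein of its mature, MHC class II high cells that switches on many genes otherwise restricted to single organs, each in a small share of the cells. BALB and B6 are inbred strains with different MHC haplotypes (H2-d and H2-b), and have long been used to compare susceptibility to autoimmune disease.

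Values are given as log2 intensity, so that a difference of 1 is a 2-fold difference, and all differences are BALB minus B6. A probe set or gene is said to be past the test when its p-value in limma, fitted to all 20 arrays and adjusted by the Benjamini-Hochberg method over all 45037 probe sets, is under 0.05. Where several probe sets read a gene, the one with the greatest average level in the 20 arrays stands for it, which gave 18193 genes. Levels of different probe sets are not comparable with one another, so only strains are compared. The 5th percentile of all log2 levels was 3.77, and values near it are called the bottom of the scale.

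The sorted cells carried the markers of their gate in both strains, and RNA of other cell types was also read. Epcam averaged 12.25 ± 0.19 (SD, n = 4) in BALB and 11.73 ± 0.61 (SD, n = 3) in B6 on the log2 scale, and H2-Aa 13.20 ± 0.07 and 13.75 ± 0.26. Ptprc, which encodes CD45 and should be low after the gate, averaged 9.66 ± 0.85 and 9.52 ± 0.59. The 19 measured markers of dendritic cells and macrophages had mean levels of 7.70 to 8.45 in the BALB mice and 8.05 to 8.43 in the B6 mice. In limma, 0 of these 19 passed the adjusted test and 0 had an unadjusted p under 0.05. The adjusted test was also passed by 0 of 10 B-cell, 0 of 15 T-cell, 0 of 9 endothelial and 0 of 4 red blood cell markers, with 2 in each of these lists under 0.05 unadjusted, where 19.3% of all probe sets and 21.7% of all genes were. Array medians lay between 88.0 and 90.9 intensity units in the 7 mice. The Gapdh 3' minus 5' log2 signal, which rises as RNA is shortened, was 3.76, 1.90 and 2.31 in the B6 mice and 2.34, 2.24, 2.73 and 3.04 in the BALB mice. The labels carry sample codes that form consecutive series, called code runs here, whose meaning is not stated. BALB mice 1 and 2 are in one run, BALB mice 3 and 4 in another and B6 mice 2 and 3 in yet another, and B6 mouse 1 has no code. No run holds wild-type mice of both strains, so strain and run cannot be told apart from these 7 mice alone.

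Of 45037 probe sets, 1158 were higher (2.57%) and 1589 lower (3.53%) in BALB, together 6.10%. At least 2-fold differences that passed the test numbered 841 (1.87%): 346 higher in BALB (0.768%) and 495 lower (1.10%). At least 4-fold differences numbered 57 and 101. Among genes, 448 of 18193 were higher (2.46%) and 833 lower (4.58%), 7.04% in all, and 370 of these differed at least 2-fold (2.03%), 136 higher and 234 lower (0.748% and 1.29%). The median difference was 0.00 over all probe sets and -0.03 over all genes. For 6426 probe sets (14.3%) the 4 BALB and 3 B6 values did not overlap, with BALB above in 6.51% and below in 7.75%. In bulk RNA of a sorted population, fewer cells of a type and less RNA per cell cannot be told apart. The count of 2747 probe sets became 1673 without B6 mouse 2 and 1744 without B6 mouse 3. A fit with the code run as a fixed block, here and below, left out B6 mouse 1, which has no code. In this fit a single B6 knockout mouse links the runs of the strains. It called 447 probe sets, and 833 of the 841 kept their direction in it.

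**Figure D1:**
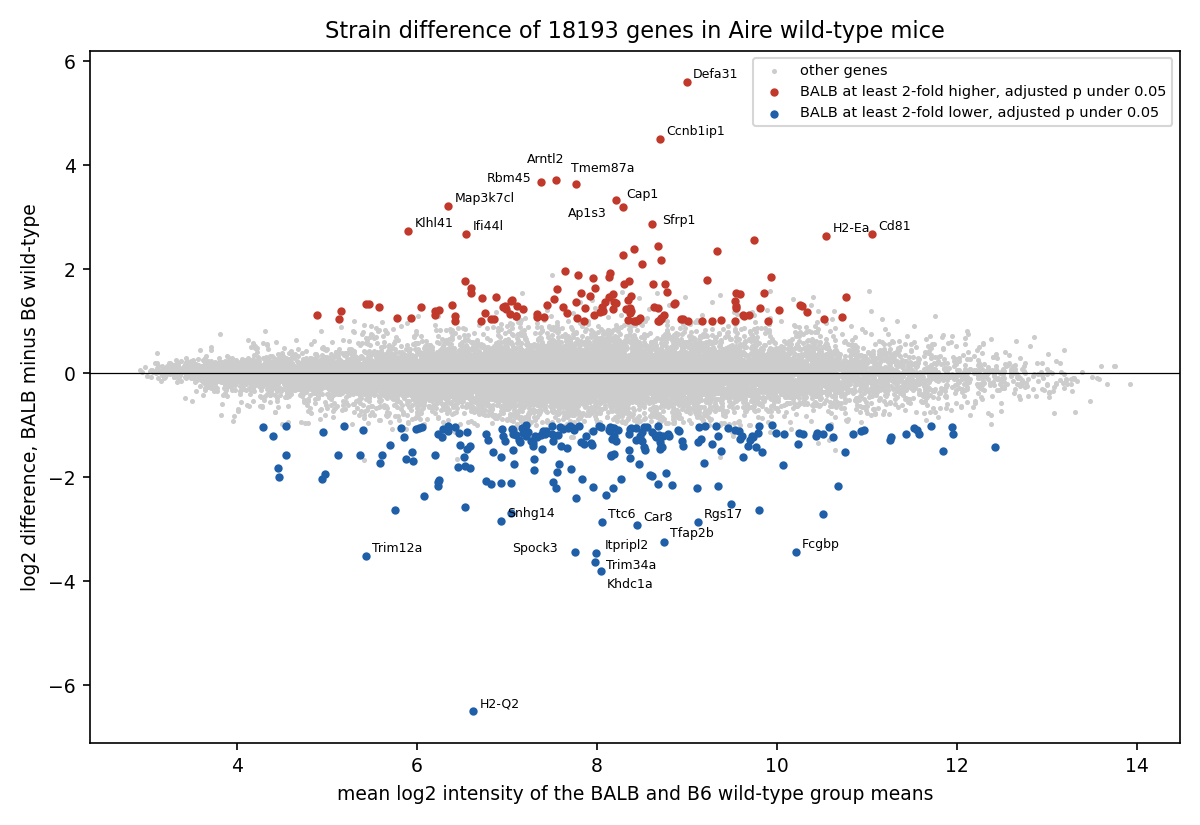
Each point is 1 of 18193 genes, with the mean log2 intensity of the BALB and B6 wild-type groups on the x axis and the log2 difference (BALB minus B6) on the y axis. Red and blue points mark the 136 genes higher and the 234 lower in BALB by at least 2-fold and past the test, among which Defa31 (5.60) and H2-Q2 (-6.50) lie farthest from 0.

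Genes of the MHC held some of the wide gaps between the strains, among them the known haplotype difference at H2-Ea. H2-Ea encodes the alpha chain of the class II molecule I-E, which B6 and NOD mice lack because of a deletion in this gene. Its probe set read 12.05, 12.05, 11.90 and 11.48 in the BALB mice and 9.24, 8.96 and 9.49 in the B6 mice. Every BALB value lay above every B6 value, and the difference was 2.64 ± 0.15 (SE; limma adjusted p = 1.97e-09). A further H2-Ea probe set read 13.70, 13.76, 13.72 and 13.61 in BALB against 5.27, 4.86 and 5.02 in B6, a difference of 8.65 (limma adjusted p = 7.78e-17). The NOD mice read 5.95, 5.91 and 5.34 on it, and a last probe set was near the bottom of the scale in both strains (difference 0.35, limma adjusted p = 0.164). The fold for this gene thus depends on the probe set, and BALB was the higher group on both that passed.

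Among the other class II genes, H2-Aa, H2-Ab1, H2-Eb2, H2-Oa and Cd74 were lower in BALB. Of 11 measured genes of the class II list, 5 were lower and 2 higher (H2-Ea and H2-Ob), against 4.58% and 2.46% of all genes, and the median difference was -0.35 where that of all genes was -0.03. H2-Ab1, the beta chain of I-A, read 12.97, 12.93, 13.10 and 12.78 in BALB and 13.57, 13.71 and 13.77 in B6. All BALB values were below all B6 values, and H2-Ab1 differed by -0.74 ± 0.09 (limma adjusted p = 6.13e-05). Its other probe sets gave -0.98 and -1.33, both past the test. The alpha chain of I-A, H2-Aa, differed by -0.54 ± 0.12 (limma adjusted p = 0.0125). On its other probe sets H2-Aa gave -0.37, -0.36 and -2.45, all past the test, so the size of the I-A gap depends on the probe set. Probe sequences were not examined, so the part of mismatches between transcript and probe in the class II gaps was not tested. Cd74, the invariant chain that guards the groove of new class II molecules, read 11.46, 11.44, 11.56 and 11.03 in BALB and 11.95, 13.53 and 12.16 in B6. B6 mouse 2 stood well above the other B6 mice, and the Cd74 difference of -1.17 ± 0.32 (limma adjusted p = 0.0343) was -0.21 and not past the test with the code run as a fixed block. H2-Eb2, an E-beta-like gene, was 11.17, 11.21, 11.19 and 10.40 in BALB against 12.12, 12.31 and 12.07 in B6, a difference of -1.18 ± 0.18. The peptide-editing inhibitor H2-O split: its chain H2-Oa was lower (-0.94) and its chain H2-Ob higher (0.60) in BALB. H2-Eb1 (-0.21) and Ciita (0.54), the master activator of class II genes, did not pass. Leaving out B6 mouse 2 cut the class II count from 7 to 4, and with the code run as a fixed block there was 1.

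Several class II promoters share a Y box, the letters CTGATTGG or their reverse, known as the binding site of the factor NF-Y in the conserved class II promoter module. The 120 bases below, from RefSeq on the plus or minus strand of build GRCm38.p6, are shown because H2-Aa and H2-Eb2 were lower in BALB while H2-Eb1 was not called. The capitals mark the Y box. The letters are found in 4.10% of 32851 promoter windows of 300 bases.
H2-Aa (chr17:34287824-34287943, minus strand): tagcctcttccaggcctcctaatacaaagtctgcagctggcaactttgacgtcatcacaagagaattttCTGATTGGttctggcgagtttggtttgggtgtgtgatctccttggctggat
H2-Eb1 (chr17:34305747-34305866, plus strand): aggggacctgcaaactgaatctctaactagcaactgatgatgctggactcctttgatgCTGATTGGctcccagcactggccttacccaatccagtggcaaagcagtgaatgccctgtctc
H2-Eb2 (chr17:34325555-34325674, plus strand): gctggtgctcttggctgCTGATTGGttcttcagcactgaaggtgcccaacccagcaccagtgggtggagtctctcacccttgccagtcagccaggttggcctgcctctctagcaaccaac
The reference genome is that of the B6 strain, so these are B6 letters, and the BALB letters were not examined. The differences beside them were -0.54 for H2-Aa, -0.21 for H2-Eb1 and -1.18 for H2-Eb2 on the probe sets that stand for these genes. H2-Aa gave -0.37, -0.36 and -2.45 on its other probe sets. Whether the genes differ from one another in this was not tested.

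The class I list had 1 gene higher and 4 lower in BALB of 12 measured, with a median of -0.27. Among all genes 2.46% were higher and 4.58% lower, with a median of -0.03. With the code run as a fixed block there were 2 calls and the list median was -0.0045. H2-Q2, a non-classical class I gene of the Q region, showed the widest gap among the probe sets that stand for genes. It read 3.43, 3.21, 3.45 and 3.41 in BALB and 9.85, 9.55 and 10.23 in B6, and 8.48, 8.86 and 8.94 in NOD. The BALB values sit at the bottom of the array's scale, and the difference was -6.50 ± 0.17 (limma adjusted p = 2.49e-14). Q-region neighbours H2-Q10 (-2.03) and H2-Q5 (-0.82, but 0.51 without passing on its other probe set) were lower too, as was H2-Bl (-0.81). H2-M3, which presents formylated peptides, was higher (0.57 ± 0.12). The classical genes H2-K1 (-0.35) and H2-D1 (-0.34) and their light chain B2m (-0.21) did not pass. Class I genes are near copies of one another and differ in sequence between haplotypes. Probe sequences were not examined, so the part of mismatches between transcript and probe in these gaps was not tested. Among 19 genes of antigen processing, 3 were lower, namely Tapbp (-0.64), Tapbpl (-0.59) and Psme1 (-0.55), beside 4.58% of all genes. The peptide transporter subunit Tap2 was higher (0.60), beside 2.46% of all genes. These 4 calls became 1 without B6 mouse 2, 2 without B6 mouse 3, 2 without BALB mouse 2 and 0 with the code run as a fixed block.

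Aire itself did not pass the test, and 1 gene of its partners did. Aire read 10.48, 10.53, 10.71 and 9.31 in BALB and 10.81, 10.73 and 10.65 in B6. BALB mouse 4 was the lowest, and the difference of -0.48 ± 0.24 did not pass (limma adjusted p = 0.295). Of 21 measured genes of the list of Aire and its partners, only Top1, a topoisomerase that acts at Aire's targets, passed (0.56 ± 0.13, limma adjusted p = 0.0142), and the median was -0.08. Since 7.04% of all genes passed, nothing is read from this 1 call about the partners. The Top1 call was lost without B6 mouse 1, without B6 mouse 3 and with the code run as a block, and without B6 mouse 2 the list had 2 calls. Aire's probe set averaged 10.96 and 11.53 in the BALB and B6 knockout mice, so it does not check the knockout genotype. Nnt, known to carry a deletion in some B6 lines, read 9.17, 9.26, 9.65 and 9.21 in BALB and 8.66, 8.17 and 8.89 in B6, a difference of 0.75 that missed the threshold (limma adjusted p = 0.0521). Eif2s3y, a gene of the Y chromosome, read 10.09 or more in all 7 mice, which were labelled male, and differed by -0.60 ± 0.16 (limma adjusted p = 0.0325).

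The 12 genes farthest above B6 in BALB, chosen among those past the test without overlap of the groups, came from unrelated families. Defa31, an alpha-defensin of the antimicrobial peptides that Paneth cells of the gut make, was first. Its level was 12.22, 12.29, 11.49 and 11.18 in the BALB mice and 6.11, 6.34 and 6.14 in the B6 mice, a difference of 5.60 ± 0.34, or 48.5-fold (limma adjusted p = 5.46e-09). NOD mice read 10.53, 10.82 and 11.21, nearer to BALB than to B6. The alpha-defensins are many near-identical copies, so this probe set may read more than 1 of them. Ccnb1ip1, known for its part in meiotic crossover, read 11.28, 11.47, 11.16 and 9.91 in BALB and 6.70, 6.30 and 6.32 in B6, a difference of 4.51 ± 0.33. Here too the groups were far apart and NOD was on the BALB side (11.22, 10.78 and 10.12). Rbm45, an RNA-binding protein, was 9.55, 9.81, 8.66 and 8.83 in BALB and 5.52, 5.45 and 5.64 in B6, and NOD lay near B6 at 6.18, 6.10 and 5.91. Its difference was 3.68 ± 0.26.

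Cd81, a tetraspanin of the cell surface, read 12.47, 12.41, 12.52 and 12.20 in BALB and 10.01, 9.06 and 10.09 in B6, a difference of 2.68 ± 0.24 (limma adjusted p = 9.83e-07). All BALB values exceeded all B6 values by more than 2 units. Sfrp1, a secreted inhibitor of Wnt signalling, differed by 2.87 ± 0.28 on the probe set used. Its 4 other probe sets gave -0.80, 1.05, 0.41 and -1.44, so no direction is stated for the gene. For Arntl2, a relative of the clock factor Bmal1, the probe set used gave 3.72 and the other -0.17. Cap1, an actin regulator, gave 3.33 and 1.29. Ifi44l, an interferon-induced gene, gave 2.68, 2.43 and 0.42. The rest were Tmem87a, a Golgi membrane protein (3.63), Map3k7cl (3.22), the clathrin adaptor subunit Ap1s3 (3.20) and Klhl41, a muscle kelch protein (2.74).

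The 12 genes farthest below B6 in BALB, chosen by the same rule, included after H2-Q2 a pair of Trim genes and several genes of single organs. Khdc1a, a KH-domain gene of oocytes and early embryos, read 6.09, 6.62, 5.98 and 5.87 in BALB and 9.33, 10.44 and 10.06 in B6, a difference of -3.80 ± 0.21 (limma adjusted p = 1.41e-09). NOD mice were near BALB at 5.73, 5.72 and 5.89. Fcgbp, a protein of intestinal mucus, was 8.35, 8.53, 8.40 and 8.68 in BALB and 11.48, 12.99 and 11.32 in B6. B6 mouse 2 was the highest by over 1 unit, and the Fcgbp difference was -3.44 ± 0.34 (limma adjusted p = 4.37e-06). Tfap2b, a transcription factor of the AP-2 family, read 7.50, 7.41, 7.08 and 6.50 and 10.48, 10.27 and 10.32. It differed by -3.24 ± 0.20, and its other probe set by -3.49. Rgs17, a regulator of G protein signalling, differed by -2.86 and -3.27 on its probe sets. Car8, a carbonic anhydrase relative, differed by -2.92 on the probe set used and by -0.49 and -1.98 on the others. Spock3, an extracellular proteoglycan (-3.43 and -0.02), Ttc6 (-2.86 and -0.08) and the noncoding Snhg14 (-2.84, -0.93 and 0.20) had other probe sets with little or no difference. Itpripl2 had a single probe set (-3.45 ± 0.17).

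**Figure D2:**
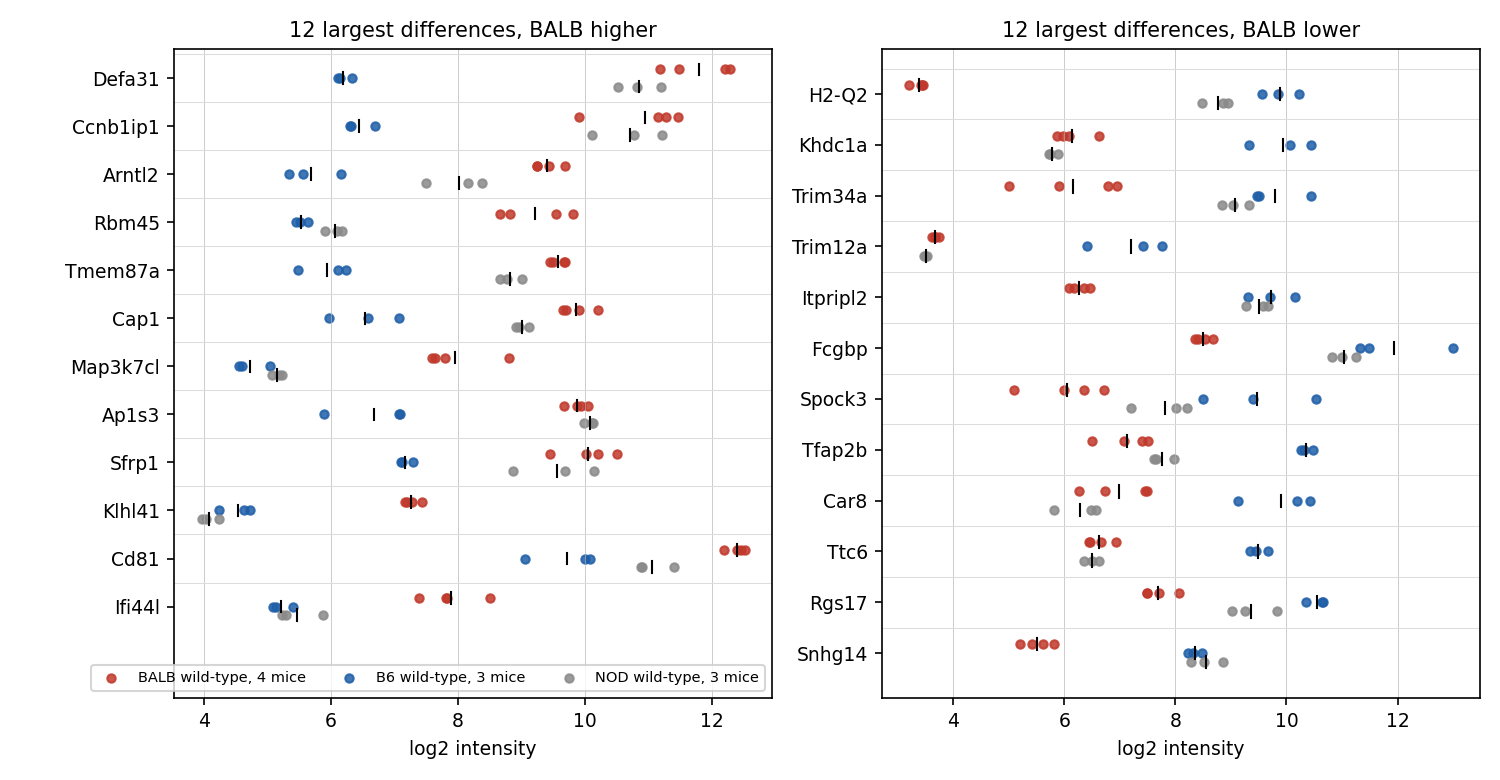
Log2 intensity (x axis) of the 12 genes most above B6 in BALB (left) and the 12 most below (right), with 1 point per wild-type mouse and a black bar at each group mean; NOD mice are in grey. Lack of overlap between BALB and B6 was a condition for choosing these genes. NOD lies nearer to BALB for Defa31 and Ccnb1ip1 and nearer to B6 for Rbm45 and Itpripl2.

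Over all 370 genes that differed at least 2-fold, 161 had other probe sets, 283 in all. Of these 283, 221 had the same sign as the probe set used, 77 passed the test with that sign and 8 passed with the opposite sign. At least 1 other probe set passed the same way for 66 of the 161 genes. Among genes named below, probe sets that did not pass and had the opposite sign included those of Trim30a (0.35), Ccnd1 (-0.50), Ddc (0.13), Csn3 (0.12), Tnfrsf11a (0.12), L1cam (-0.02) and Sqor (0.06).

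The Trim genes of chromosome 7, which encode intracellular proteins known for restricting retroviruses and for tuning inflammasome and interferon responses, were mostly lower in BALB on the probe sets that stand for genes. Of 6 measured genes in a row, 5 were at least 2-fold lower: Trim34a, Trim5, Trim12a, Trim30a and Trim30d. Trim12c, between Trim12a and Trim30a, was not called (0.17, limma adjusted p = 0.626). Trim12a read 3.75, 3.67, 3.67 and 3.62 in BALB and 6.41, 7.75 and 7.42 in B6, a difference of -3.52 ± 0.27 (limma adjusted p = 1.26e-07). BALB values were at the bottom of the scale, and so were those of NOD (3.53, 3.49 and 3.47). The other Trim12a probe set read 4.36 in BALB and 4.49 in B6 and did not pass (-0.12, limma adjusted p = 0.591). Trim34a was 6.79, 5.0, 5.91 and 6.95 in BALB, spread over almost 2 units, and 9.50, 10.44 and 9.46 in B6, and it differed by -3.64 ± 0.35. With the code run as a fixed block it no longer passed (limma adjusted p = 0.0597). Its other probe set, at 4.74 and 3.94, was higher in BALB by 0.80. Trim5 was 5.19, 5.38, 5.07 and 4.96 in BALB and 6.99, 7.31 and 7.66 in B6 (-2.17 ± 0.21), with NOD above both at 8.29, 8.59 and 8.77. The differences were -2.58 ± 0.36 for Trim30d and -1.27 ± 0.29 for Trim30a. Their other probe sets gave -0.45 for Trim30d (limma adjusted p = 0.0596) and 0.35 for Trim30a and did not pass. These genes are close paralogs and differ between strains in sequence and copy number, and probe sequences were not examined.

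All 6 Trim genes of this row carry, near their RefSeq start sites, the core of the interferon-stimulated response element, searched on both strands as GAAA, any 2 letters and GAAA. The stretches of 4 called genes and of Trim12c are shown, 120 bases each from RefSeq on build GRCm38.p6 with the core in capitals, since all hold the core and Trim12c alone among them was not called. The core is found in 3.44% of 32851 promoter windows of 300 bases.
Trim34a (chr7:104244357-104244476, plus strand): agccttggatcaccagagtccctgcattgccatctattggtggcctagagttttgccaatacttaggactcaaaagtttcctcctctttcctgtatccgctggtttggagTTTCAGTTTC
Trim5 (chr7:104288087-104288206, minus strand): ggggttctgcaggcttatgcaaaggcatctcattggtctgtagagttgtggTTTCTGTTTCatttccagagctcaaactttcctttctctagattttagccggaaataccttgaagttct
Trim12a (chr7:104315476-104315595, minus strand): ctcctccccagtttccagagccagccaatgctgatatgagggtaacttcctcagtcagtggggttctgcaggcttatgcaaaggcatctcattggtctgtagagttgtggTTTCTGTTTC
Trim30d (chr7:104507830-104507949, minus strand): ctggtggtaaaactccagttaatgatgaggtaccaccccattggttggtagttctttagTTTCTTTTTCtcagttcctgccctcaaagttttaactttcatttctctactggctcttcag
Trim12c (chr7:104353330-104353449, minus strand): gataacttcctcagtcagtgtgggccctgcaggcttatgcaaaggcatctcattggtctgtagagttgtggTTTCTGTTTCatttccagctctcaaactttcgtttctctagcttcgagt
These are B6 letters again, and a match describes the sequence only.

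Of 49 measured genes of immune loci known to vary between inbred strains, the Trim genes included, 14 were lower in BALB and 4 higher, with a median of -0.11. Among all genes 4.58% were lower and 2.46% higher, with a median of -0.03. The list was chosen with earlier results of these data known, so its count is no independent evidence. Ly6e, a GPI-anchored protein that blocks viral entry, read 8.38, 8.71, 9.64 and 9.92 in BALB and 11.44, 12.34 and 11.80 in B6 (-2.70 ± 0.37, limma adjusted p = 0.00015). BALB mice 3 and 4 were about 1 unit above BALB mice 1 and 2, which are in another code run. Mndal, of the DNA-sensing interferon-inducible p200 family, was 8.76, 8.08, 7.86 and 8.20 in BALB and 9.94, 11.17 and 11.13 in B6 (-2.52 ± 0.50). Its relatives Ifi204 (-1.72) and Ifi203 (-0.50) were lower too. Apobec3, a deaminase that restricts retroviruses, differed by -1.96 ± 0.29. Naip5 (-1.13) and Naip2 (-1.13), sensors of bacterial flagellin and secretion systems, completed this side together with complement component Hc (-0.51) and the chemokine Ccl27a (-1.22). On the other side, the GTPase Gbp2b was higher in BALB (9.70, 9.97, 8.98 and 9.58 against 7.47, 7.37 and 7.51; 2.11 ± 0.23). So were Wdfy1 (1.41), the lectin-like Clec2d (1.04) and the detoxifying enzyme Glo1 (1.0). The 18 calls stayed at 15 or more without any single mouse and became 7 with the code run as a fixed block.

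Of 34 interferon-stimulated genes in a general list, 3 were lower (Oasl2 -1.16, Irf1 -0.55 and Gbp6 -0.44) and 1 was higher (Ddx58 0.44), and the median was -0.01, where 4.58% of all genes were lower, 2.46% were higher and the median was -0.03. At an unadjusted p under 0.05 there were 15 of 34, against 21.7% of all genes. Without a single mouse the count fell to 1 (B6 mouse 2 or BALB mouse 3), 2 (B6 mouse 1 or 3, BALB mouse 1 or 2) or 3 (BALB mouse 4), and to 0 with the code run as a fixed block. Among 48 chemokines and cytokines, 4 were lower in BALB and 1 higher, with a median of -0.14, again beside 4.58% and 2.46% of all genes. Cxcl11, a ligand of Cxcr3, was higher in BALB (11.74, 11.46, 11.75 and 11.05 against 9.94, 10.55 and 9.62). It differed by 1.46 ± 0.22, and by 1.59 on its other probe set. Ccl6 (-1.76 ± 0.49), Ccl27a (-1.22), Ccl20, which attracts Ccr6-bearing cells (-1.11), and Il15, a survival factor for innate lymphocytes (-0.93), were lower. Without B6 mouse 2 these 5 calls became 3, and without BALB mouse 4 they became 8. With the code run as a fixed block there were 2.

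The lists of genes typical of single organs are read against all genes, of which 833 of the 1281 that passed were lower in BALB (4.58% of all genes lower and 2.46% higher, median -0.03). Of 15 measured stomach genes, 7 were lower and 0 higher, with a median of -0.26. Atp4a, the catalytic subunit of the gastric proton pump and the classic autoantigen of autoimmune gastritis, read 8.92, 9.05, 8.82 and 7.99 in BALB and 9.23, 10.24 and 9.67 in B6. All BALB values were below all B6 values, and the difference was -1.02 ± 0.28 (limma adjusted p = 0.038). The pump's other subunit, Atp4b, did not pass (-0.20). Gastric lipase Lipf was 7.35, 7.50, 6.32 and 6.71 in BALB and 9.01, 7.95 and 7.52 in B6 (-1.19 ± 0.30). The surface mucin Muc5ac (-0.86), the mucosal peptide Gkn1 (-0.76, and -0.90 on its other probe set), the trefoil peptides Tff2 (-0.72) and Tff1 (-0.47) and Psca (-0.51) were lower as well. The count became 3 without B6 mouse 2, B6 mouse 3 or BALB mouse 3, and 1 with the code run as a fixed block, in which the list median was -0.31.

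In the pancreas list 6 of 26 measured genes were lower in BALB and 1 higher, with a median of -0.33. The lower genes were mostly of the Reg family, secreted lectin-like proteins of the pancreas and gut. Reg3g, an antibacterial lectin, read 11.49, 11.52, 11.76 and 12.10 in BALB and 12.88, 13.28 and 13.23 in B6, a difference of -1.42 ± 0.19 (limma adjusted p = 0.0001). Reg3a was 6.64, 6.62, 6.58 and 6.64 against 7.80, 7.96 and 8.01, with little spread within either group (-1.30 ± 0.11, limma adjusted p = 8.69e-07). Reg3b (-1.39 ± 0.38; -1.52 on its other probe set) and Reg2 (-0.58) were lower, as were the trypsin inhibitor Spink1 (-1.23) and the lipase Cel (-0.65). Chga, the chromogranin of hormone granules, was higher (9.09, 9.14, 9.22 and 9.10 against 8.22, 8.35 and 8.55; 0.77 ± 0.12). Ins2 (-0.59) and Iapp (-0.56), products of the islet beta cell, did not pass. Without B6 mouse 2 or B6 mouse 3 the 7 calls became 4, and the fixed block for code run left 2.

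Salivary and lacrimal genes had the lowest median of the organ lists, -0.58, with 5 of 18 lower and 1 higher. The related secreted proteins Dcpp3 and Dcpp1 went opposite ways. Dcpp3 read 7.44, 7.19, 7.16 and 7.19 in BALB and 9.34, 8.77 and 9.73 in B6 (-2.04 ± 0.18, limma adjusted p = 1.15e-06), whereas Dcpp1 read 7.59, 6.95, 7.07 and 6.57 and 5.78, 5.45 and 5.97 (1.31 ± 0.18, limma adjusted p = 0.00016). These genes are near copies, and how strain alleles match each probe set was not tested. The others below B6 were Bpifa2 (-1.08), the kallikrein Klk1b5 (-1.06), the carbonic anhydrase Car6 (-0.79) and Scgb2b27 (-0.70). The 6 calls became 2 without B6 mouse 3, 3 without BALB mouse 3 or BALB mouse 4, and 1 with the code run as a fixed block.

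Among 38 genes of the liver and plasma, 6 were lower in BALB and 1 higher, with a median of -0.34. Serpinc1, which encodes antithrombin, read 5.88, 5.61, 5.79 and 5.55 in BALB and 8.02, 8.39 and 8.76 in B6, a difference of -2.68 ± 0.17 (limma adjusted p = 1.22e-08). The remaining lower genes were Ambp (-1.20), the acute-phase protein Orm2 (-0.93), the apolipoprotein Apoa1 (-0.83), Hc (-0.51) and prothrombin F2 (-0.46). Fga, the alpha chain of fibrinogen, was higher (1.78 ± 0.32), with BALB values of 8.10, 7.20, 8.0 and 6.40 and B6 values of 6.26, 5.15 and 5.52. Alb, the most typical liver product, did not pass (-0.27). Without B6 mouse 2 or B6 mouse 3 these 7 calls became 4, and with the code run as a fixed block 1.

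The remaining organ lists held 1 to 3 calls each, where 7.04% of all genes passed and most of those were lower in BALB. Counts this small are given as values, and nothing is read from them about the lists. They were 0 higher and 3 lower of 27 intestinal genes (Fcgbp, Lypd8 -1.10 and Sct -0.56), and 0 and 3 of 15 lung and airway genes (Ltf -1.12, Scgb3a2 -0.93 and Ager -0.54). Counts were 0 and 3 of 11 mammary and milk genes (Xdh -1.83, Csn3 -0.80 and Muc1 -0.61) and 0 and 2 of 24 genes of the male glands and testis (Defb1 -1.02 and Svs3a -0.43). Endocrine glands had 0 and 2 of 17 (Gh -0.50 and Star -0.44). Brain and retina had 1 and 0 of 31, the neurofilament Nefl, which read 9.61, 9.52, 9.44 and 8.42 in BALB and 7.48, 7.48 and 7.43 in B6 (1.78 ± 0.25). Muscle had 1 and 0 of 25, the myogenic factor Myog (1.49 ± 0.24). Of 25 keratinocyte genes 1, the protease Klk5, was lower (-0.71). The intestinal count became 6 without B6 mouse 1 and 1 without B6 mouse 3. The mammary count became 1 without B6 mouse 2, B6 mouse 3 or BALB mouse 4, and the male count 1 without BALB mouse 2, BALB mouse 3, B6 mouse 1 or B6 mouse 3. The endocrine count became 1 without BALB mouse 1 or B6 mouse 3. The brain count became 3 without B6 mouse 2 and 2 without BALB mouse 2 or B6 mouse 3, and the muscle count 2 without BALB mouse 2, 3 or 4 or B6 mouse 1 or 2. The keratinocyte call was lost without B6 mouse 2 or 3 and joined by another without BALB mouse 4. With the code run as a fixed block none of these 8 lists kept a call (medians from -0.37 to 0.10).

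Of 37 organ-specific proteins known as targets of autoimmunity, 4 were lower in BALB and 0 higher, with a median of -0.10, where 4.58% of all genes were lower, 2.46% were higher and the median was -0.03. The 4 were Atp4a, above; Ddc, a target in autoimmune polyendocrine disease (-0.83 ± 0.21); Nlrp5, the parathyroid and oocyte antigen (-0.81 ± 0.16); and Ptprn2, an islet antigen also called IA-2 beta (-0.64 ± 0.18). Thyroglobulin (Tg, 0.10), the retinal antigens Rbp3 (-0.14) and Sag (0.36), and the myelin antigens Mbp (0.04) and Mog (0.04) did not pass. The 4 calls became 1 without B6 mouse 2 or BALB mouse 1, 2 without B6 mouse 3 or BALB mouse 4, and 0 with the code run as a block.

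**Figure D3:**
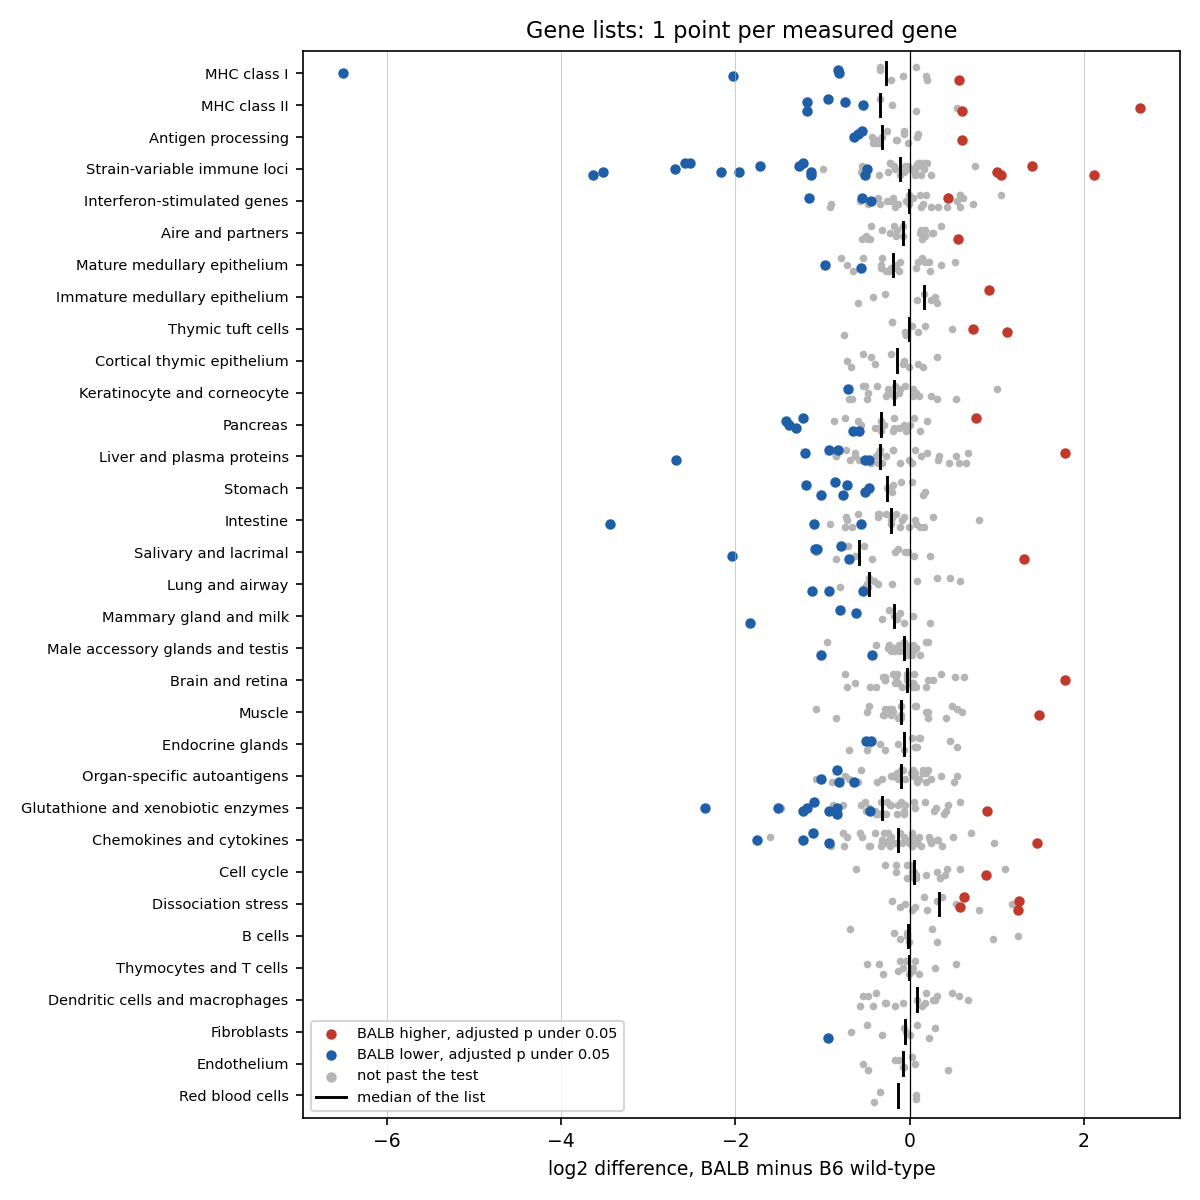
Each row is a gene list and each point a measured gene at its log2 difference (BALB minus B6 wild-type, x axis), red or blue where it passed the test; the black bar is the list's median. Stomach, pancreas, liver and salivary lists have their called genes mostly below 0, and the dissociation stress list lies mostly above 0 with a median of 0.34.

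Genes that need Aire could be chosen without any BALB or B6 array, from the NOD mice. In NOD, 803 probe sets were at least 2-fold lower in knockout than in wild-type mice with no overlap between the groups. Of these 803, 124 were lower and 36 higher in BALB than in B6 wild-type mice, 19.9% together. Among all probe sets 3.53% were lower and 2.57% higher, 6.10% together. Of the probe sets above the median level, 8.02% passed. The 803 had median levels per mouse of 7.77, 7.80, 7.60 and 7.37 in BALB and 7.94, 7.76 and 7.93 in B6. The groups thus overlapped, and the median difference was -0.24. In the knockout mice 112 of the same probe sets were higher and 54 lower in BALB, with a median of 0.16 (20.7% together, against 12.2% of all probe sets, 5.51% higher and 6.66% lower). Conversely, 232 probe sets were at least 2-fold higher in NOD knockout mice, and 48 of these were lower and 0 higher in BALB wild-type mice (20.7%, median -0.36). In the knockout mice 99 of the 232 were lower and 6 higher in BALB (45.3%, median -0.57). BALB medians per mouse for this set were 7.62, 7.58, 7.39 and 7.15, all below the B6 medians of 7.85, 7.97 and 8.01. In both sets BALB mice 1 and 2 lay above BALB mice 3 and 4, which are in another code run. No counts without single mice or with the code run as a block are given for these sets.

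The strain difference itself was then tested for a change with the Aire genotype. It passed for 101 probe sets (0.224%): 75 were more negative in wild-type than in knockout mice (0.167%) and 26 more positive (0.0577%). At an unadjusted p of 0.05 there were 2224. The count of 101 became 44 without B6 mouse 3, 59 without BALB mouse 3 and 62 without BALB mouse 2. Of the 75 more negative probe sets, 43 were lower in BALB wild-type mice, and 35 of those were not past the test in the knockout mice. Choosing probe sets by a more negative wild-type difference favours such counts, so nothing is read from them. Gatm, an enzyme of creatine synthesis, read 8.16, 7.60, 7.22 and 7.45 in BALB and 9.90, 9.78 and 9.55 in B6 wild-type mice (-2.14), against 6.55, 6.69, 5.15 and 7.07 and 5.93, 5.83 and 5.83 in the knockouts (0.50). The difference between these differences was -2.64 ± 0.51 (limma adjusted p = 0.0406), and with the code run as a fixed block the Gatm gap in wild-type mice no longer passed.

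Dcpp3, at 0.09 in knockout mice, had a difference of differences of -2.13 ± 0.26 (limma adjusted p = 0.00106). For Khdc1a, which differed by -3.80 in wild-type and -1.55 in knockout mice, it was -2.25 ± 0.30 (limma adjusted p = 0.0026). Adh6a, an alcohol dehydrogenase (-2.40 and -0.80), Nxpe4 (-2.16 and -0.99), Reg3a (-1.30 and -0.10) and the glutathione transferase Gstm3 (-1.52 and 0.35) had the same pattern. On the side where BALB was higher, Fam183b read 8.96, 9.73, 9.83 and 9.42 and 7.97, 7.32 and 7.99 in wild-type mice (1.72) and differed by -0.12 in knockouts. Tpsab1, a mast cell tryptase, differed by 1.17 and 0.22, and Klhl41 by 2.74 and 1.88. Muc15, a membrane mucin, went the other way, with 1.22 in wild-type and 2.98 in knockout mice (-1.76 ± 0.29, limma adjusted p = 0.0132), and so did Chga (0.77 and 2.47). Apoa1 was lower in BALB wild-type mice (-0.83) and higher in BALB knockout mice (1.0, limma adjusted p = 0.00814).

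**Figure D4:**
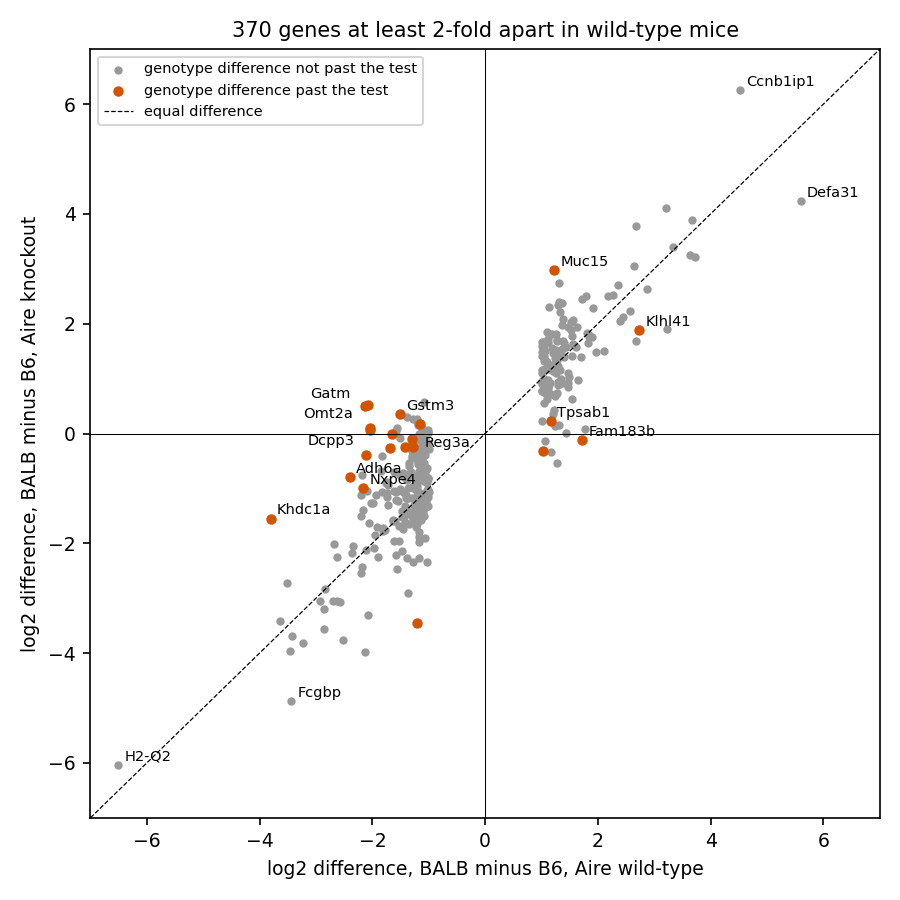
For the 370 genes at least 2-fold apart in wild-type mice, the log2 strain difference in wild-type mice (x axis) is set against that in knockout mice (y axis); orange points are the 21 genes whose strain difference changed with the genotype, which 0.319% of all genes did (0.231% more negative and 0.0879% more positive in wild-type mice). The 370 were chosen by their wild-type difference, which enters this test, so the 21 cannot be weighed against the share of all genes. Of the 370 genes, 342 have the same sign in both genotypes and lie in the lower left or upper right. Gatm (0.50), Gstm3 (0.35), Dcpp3 (0.09) and Omt2a (0.06) did not pass in knockouts. Omt2a read 3.16 to 3.29 in the BALB and B6 knockout mice, at the bottom of the scale, where a strain difference may not be readable.

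Most of the large strain differences were also read in the knockout mice, which are other animals. Of the 841 probe sets, 788 had the same sign there, 674 passed with the same sign (80.1%) and 0 passed with the opposite sign. The share that passed was 300 of 346 for those higher in BALB and 374 of 495 for those lower, where 12.2% of all probe sets passed in the knockout comparison (5.51% higher and 6.66% lower). Among genes, 14.2% passed there (6.43% higher and 7.73% lower), and the knockout counts were 0 higher and 2 lower for the stomach list, 1 and 1 for the pancreas, 5 and 3 for the liver and 0 and 0 for the salivary list. H2-Q2 differed by -6.04 in knockouts, Ccnb1ip1 by 6.26, Defa31 by 4.23 and Fcgbp by -4.88. The BALB knockout mice share their code runs with the BALB wild-type mice, and so do B6 knockout mice 2 and 3 with B6 mice 2 and 3. B6 knockout mouse 1 shares the run of BALB wild-type and knockout mice 3 and 4, so strains can be set side by side within a run there, with 1 B6 mouse and no test. Within that run, H2-Q2 read 9.75 in the B6 knockout mouse and 3.35 and 3.37 in the BALB knockout mice, and Ccnb1ip1 read 5.10 against 11.51 and 10.52. Defa31 read 6.11 against 9.93 and 10.48, and Fcgbp 11.82 against 7.87 and 7.99. The NOD wild-type mean lay nearer to BALB for 552 of the 841 and nearer to B6 for 289. The same count over all probe sets was not made. NOD wild-type mouse 1 is in the run of BALB mice 3 and 4, and no NOD mouse is in that of B6 mice 2 and 3. Nothing is therefore read from this count about likeness of the strains.

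Markers of medullary subsets passed in a few genes, where 4.58% of all genes were lower in BALB and 2.46% higher. Of 24 measured markers of mature medullary epithelium, 2 were lower in BALB and 0 higher, near the share among all genes, so nothing is read from this count about the subset. The decoy receptor Tnfrsf11b read 9.97, 9.59, 10.52 and 10.35 in BALB and 10.82, 11.41 and 11.04 in B6 (-0.98 ± 0.23, limma adjusted p = 0.0158), and Tnfrsf11a, which encodes the receptor RANK, differed by -0.55 ± 0.14. Costimulatory Cd80 (-0.54) and Cd86 (-0.23) did not pass, nor did the transcription factor Fezf2 (0.14), which controls a set of organ genes apart from Aire. Of 9 immature markers, Krt14 was higher (11.20, 11.53, 11.33 and 11.06 against 9.88, 10.69 and 10.54; 0.91 ± 0.24). Of 12 markers of thymic tuft cells, the cytokine Il25 (1.12 ± 0.24) and L1cam (0.72) were higher, but the defining factor Pou2f3 (-0.20), the channel Trpm5 (-0.06) and the kinase Dclk1 (0.18) did not pass. In limma 0 of 12 cortical markers passed, and 3 had an unadjusted p under 0.05. The mature count became 1 without BALB mouse 1, 2 or 4 or B6 mouse 3, and the tuft count 1 without BALB mouse 1, 2 or 4 or B6 mouse 2 or 3. Krt14 was lost without BALB mouse 1, BALB mouse 3 or B6 mouse 3, and its list had 2 calls without BALB mouse 2. With the code run as a fixed block, the immature list kept 1 call and the mature and tuft lists 0. List medians in the main fit and in this fit were -0.19 and -0.04 (mature), 0.16 and 0.69 (immature), and -0.01 and 0.45 (tuft).

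Enzymes of glutathione and xenobiotic metabolism were lower in BALB in 9 of 42 cases and higher in 1, with a median of -0.32. Among all genes 4.58% were lower and 2.46% higher, with a median of -0.03. Akr1c19, an aldo-keto reductase, read 6.51, 6.70, 7.12 and 7.39 in BALB and 9.05, 9.40 and 9.38 in B6 (-2.34 ± 0.25, limma adjusted p = 8.57e-06). Gstm3 was 9.13, 9.05, 9.16 and 8.97 against 11.07, 9.92 and 10.80 (-1.52 ± 0.19), and NOD was near B6 at 10.84, 11.07 and 11.16. Ces1d (-1.22), Gsta2 (-1.18), Aldh1a7 (-1.10), Akr1c18 (-0.93), Gstm6 (-0.83), Ces1g (-0.83) and Cyp2b10 (-0.46) made up the rest, and Gstm2 was higher (0.89 ± 0.21). Without B6 mouse 3 the 10 calls became 6, and with the code run as a fixed block 3, with a list median of -0.43.

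Immediate early genes are switched on within minutes, also during tissue digestion. Of 16 measured genes of this list 4 were higher in BALB and 0 lower, with a median of 0.34. Among all genes 2.46% were higher and 4.58% lower, with a median of -0.03. Fos read 12.82, 12.80, 13.04 and 13.22 in BALB and 12.51, 12.40 and 12.15 in B6 (0.62 ± 0.12, limma adjusted p = 0.00281), with every BALB value above every B6 value. Egr2 was 9.74, 10.43, 10.30 and 11.30 against 9.34, 8.97 and 9.26 (1.25 ± 0.30), Fosb differed by 1.25 ± 0.26 and the phosphatase Dusp1 by 0.58 ± 0.15. Mean levels of the list were 10.25 to 10.89 in the BALB mice and 9.91 to 10.29 in the B6 mice. The part of tissue handling in this difference was not tested. The count became 2 without B6 mouse 2, 1 without B6 mouse 3 and 1 with the code run as a fixed block, in which the list median was 0.64. Of 21 cell cycle genes, Ccnd1 alone was higher (0.87 ± 0.22; -0.50 and 0.38 on other probe sets), a call lost without BALB mouse 1 or 2 or B6 mouse 2 or 3 while 3 genes passed without BALB mouse 4. Of 10 fibroblast genes Fn1 alone was lower (-0.94 ± 0.14, and -0.16 on its other probe set). Since 7.04% of all genes passed, nothing is read from these single calls about the cell cycle and fibroblast lists.

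Genes at least 2-fold apart lay side by side at several places. In 15 stretches of the gene order, 6 measured genes in a row held 3 or more of the 368 such genes with a known place, and 7 stretches held 4 or more. In all, 18028 genes had a known place, and 2.03% of all genes were at least 2-fold apart. Each stretch was cut to begin and end at such a gene, so counts such as 4 of 5 follow partly from the rule. How many stretches would arise by chance was not worked out, so nothing is read from their number. On chromosome 8, 6 of 11 genes of a defensin region differed and in both directions: Defa31 (5.60), 6820431F20Rik (1.36) and Defb5 (1.28) were higher, and Defb8 (-1.57), Defb3 (-1.35) and Defb1 (-1.02) lower. Defb8 read 3.81, 3.78, 3.72 and 3.75 in BALB, at the bottom of the scale, and 6.17, 4.34 and 5.49 in B6. The Trim row of chromosome 7 had 5 of 6. On chromosome 9 the oocyte genes Omt2a, Omt2b and Ooep were lower together with Gsta2 (4 of 5). Omt2a was 4.70, 3.55, 3.74 and 3.70 against 6.19, 5.26 and 6.43 (-2.04 ± 0.25), Omt2b differed by -1.58 and Ooep by -1.40.

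On chromosome 2, Gatm, Spata5l1 (-1.99), AA467197 (-1.37) and the sulfide enzyme Sqor (-1.04) were lower (4 of 7). Spata5l1 read 3.38, 3.49, 3.49 and 3.54 in BALB and 5.18, 5.38 and 5.82 in B6, and unlike Gatm it was lower in knockout BALB mice too (-1.27). A further row of chromosome 2 had 4 of 5 called, with Mall (1.18), Mtln (1.02) and the proapoptotic Bcl2l11, also called Bim (1.09 ± 0.31), higher and Acoxl (-1.06) lower. Bim is known for the deletion of self-reactive thymocytes. Bcl2l11 read 11.15, 11.16, 11.23 and 11.53 in BALB and 10.68, 9.24 and 10.61 in B6, of which mouse 2 was the lowest, and its 4 other probe sets gave 0.24, 0.43, 0.39 and 0.07 without passing. On chromosome 5, Ugt2b5 (-1.51) and the sulfotransferases Sult1b1 (-1.16), Sult1d1 (-1.17) and Sult1e1 (-1.09) were lower (4 of 7). On chromosome 18, Spink1 (-1.23), Gm94 (-1.75) and Myot (-1.36) were lower and Spink12 (1.31) higher (4 of 8).

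**Figure D5:**
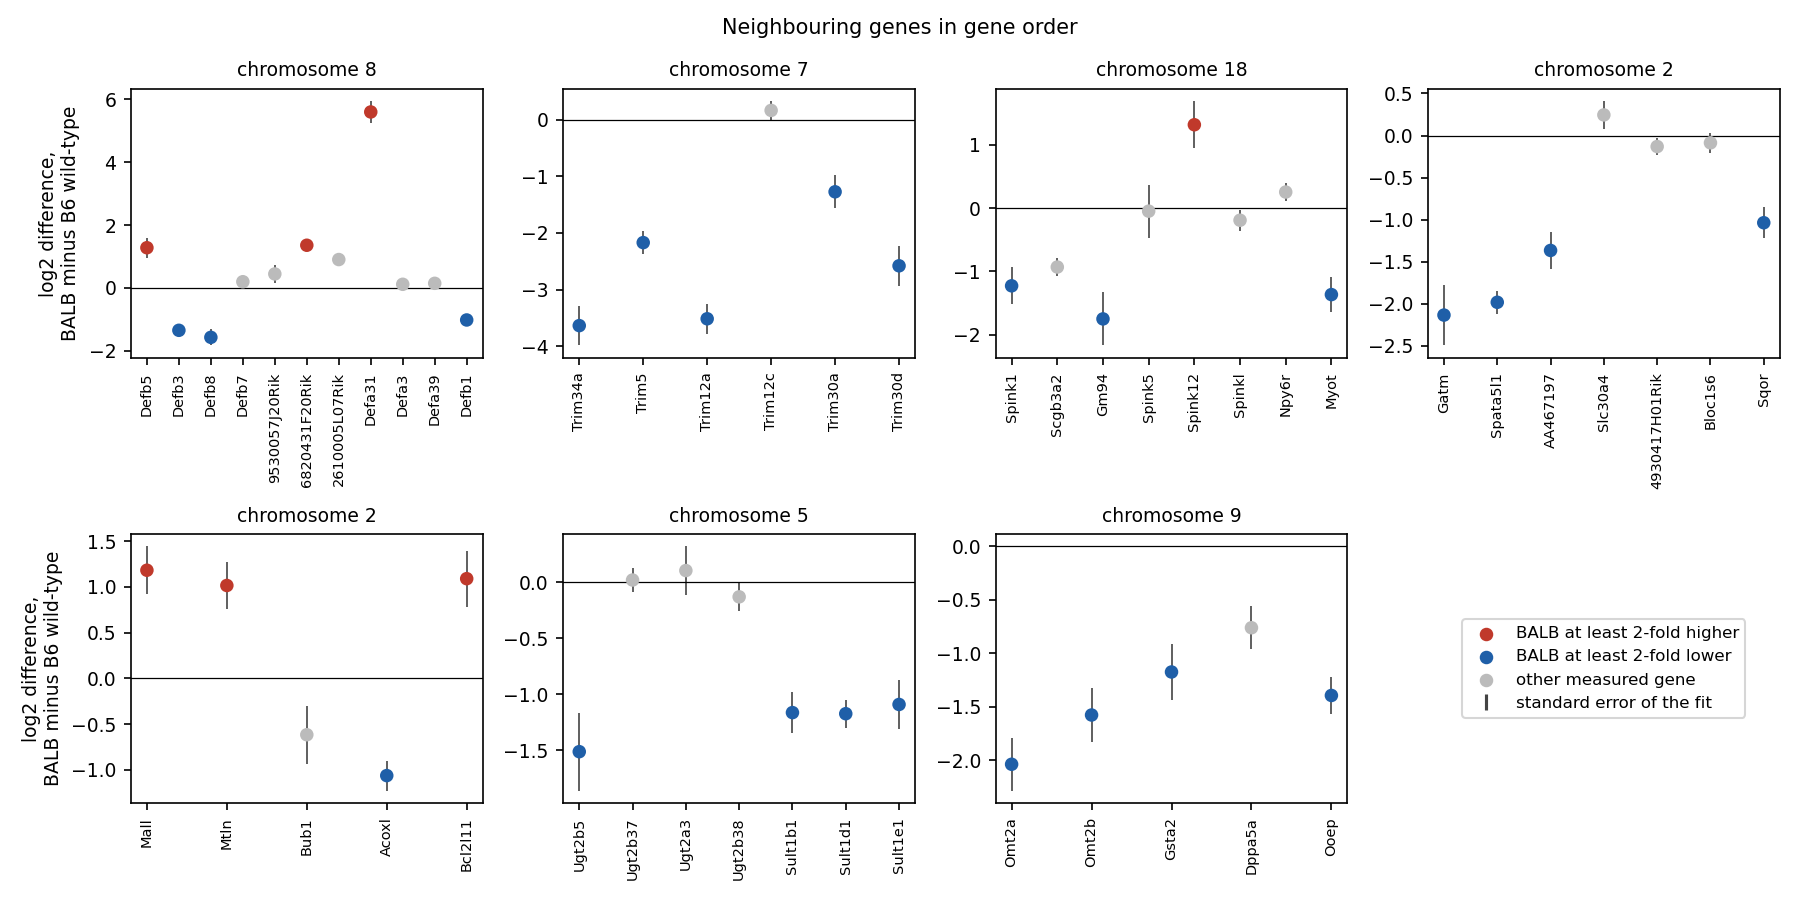
The 7 stretches of neighbouring genes with 4 or more genes called, in gene order along each chromosome (x axis, spaced evenly), with the log2 difference (BALB minus B6 wild-type) and its standard error on the y axis. The Trim row of chromosome 7 is below 0 except for Trim12c, and the defensin region of chromosome 8 has genes on both sides of 0.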

How the data were processed

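Thymic medullary epithelial cells were sorted from single thymi, and total RNA was extracted with Trizol, amplified in successive rounds as antisense RNA and hybridised to Affymetrix arrays, per the labels' protocols. The authors deposited linear intensity values, 1 for each probe set of each array, made with RMA per the submitters' processing notes. No source used here gives its version, its settings or which arrays were normalized together. Amplification can favour 3' ends, and no detection calls were used, so folds at the bottom of the scale are uncertain.

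Of 45101 probe sets, 64 controls were left out. Log2 values of all 20 arrays in 6 groups were fitted by lmFit and eBayes of limma 3.58.1 (R 4.3.3), which left 14 residual degrees of freedom, and p-values adjusted over 45037 probe sets with a threshold of 0.05. Exactly 1 gene symbol was annotated to 34945 probe sets, several to 932 and none in the table used to 9160. RefSeq (GRCm38.p6) matched 18031 of 18193 genes and gave their order and the promoter letters. Gene lists, 33 with 667 of 774 genes measured, are described by counts and medians.

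The comparison, the lists and the rules were chosen with earlier results of these data known. Named are label checks, the 12 largest differences each way without overlap, the 4 largest each way that changed with genotype, up to 8 called members per list, and called genes of the 7 fullest gene neighbourhoods (the last tied). Other list members, and the 21 genes behind the plot of genotypes, were named after their values were seen. Alternatives covered scaling, filters, variance models, arrays fitted, the code run, covariates and leaving out each mouse. Deviations of same-numbered BALB and B6 mice correlated at r = -0.03, 0.24 and 0.22. Since not every pair exceeded 0.1 and the labels give no shared source, they were not paired. The code was tested on simulated data.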

Additional observations from a re-analysis of the deposited data

Results flagged for a closer look

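Of the 150 genes named, 9 had a BALB wild-type mouse that stood apart from the other 3 by Dixon's criterion, which chance meets in about 1 of 20 groups. BALB mouse 4 was the lowest for Aire (9.31), H2-Eb2 (10.40), Top1 (10.26), Nefl (8.42) and Mtln (7.90). BALB mouse 1 was the highest for Dcpp3 (7.44) and Omt2a (4.70), BALB mouse 2 the lowest for H2-Q2 (3.21) and BALB mouse 3 the lowest for Xdh (6.31). For Aire, the other BALB mice read 10.48, 10.53 and 10.71, within the range of 10.65 to 10.81 of B6 or just below it. In the other 8 genes the mouse that stood apart did not reach the B6 values.

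Among all genes, 0.319% had a strain difference that changed with the Aire genotype. For 16 named genes the strain difference itself changed with the Aire genotype (limma adjusted p under 0.05 for the difference of differences). Wild-type minus knockout, it was more negative for Gatm (-2.64), Khdc1a (-2.25), Dcpp3 (-2.13), Omt2a (-2.10), Gstm3 (-1.87), Apoa1 (-1.82), Muc15 (-1.76), Chga (-1.71), Adh6a (-1.60), Sult1b1 (-1.33), Reg3a (-1.20), Nxpe4 (-1.17) and Fn1 (-1.01). It was more positive for Fam183b (1.84), Tpsab1 (0.94) and Klhl41 (0.85). Muc15 and Chga were higher in BALB in both genotypes, and by more in knockout mice. Omt2a read at the bottom of the scale in the knockout mice of both strains, so its change with the genotype is uncertain. Some of the 16 were named because they passed this test, and others for their wild-type difference, which enters it. Nothing is therefore read from the count of 16.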

How the results depend on the processing

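With 4 and 3 mice and no run of sample codes holding wild-type mice of both strains, strain and run rest on thin links. The fits with the code run as a fixed or random block also left out B6 mouse 1, which has no code. The wild-type count of 2747 probe sets became 938 with only the 7 arrays, 1499 with the 10 wild-type arrays, 447 and 1179 with the code run as a fixed or random block, 4519 with a Gapdh 3' minus 5' covariate, and 1673 to 2780 without single mice. The 841 at least 2-fold apart became 521 after adding 32 units before log2, 422 with the code run fixed, and 687 to 1030 without single mice. The knockout count of 5483 became 21381 with array weights, 1630 with the code run fixed, and 5261 to 6375 without single mice. The 101 with a genotype difference became 489 with array weights, 38 with the 14 BALB and B6 arrays, 167 with the code run fixed, 152 with the Gapdh covariate, 67 without BALB mice 3 and 4, and 44 to 102 without single mice. The replicate number as a block, though the mice are not paired, gave 184 for these and 3828 for the wild-type comparison. Causes were not tested. No called named gene changed sign in 23 settings, and 42 of 148 passed in all; of the 24 largest, 21 did, the others being Car8, Fcgbp and Trim34a (largest limma adjusted p 0.174, 0.0833 and 0.0597). Lists without single mice, lists with the code run as a block, and leaving out both BALB mice of a run were chosen after seeing the data.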
